A study of Rattus norvegicus with 7 samples.

Results

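The genes described here build and load major histocompatibility complex (MHC) class I molecules in the cerebellum of young rats. They are RT1-CE10, B2m, Tap1, Tap2, Tapbp, Psmb8, Psmb9, Psmb10, Psme1 and Psme2, 10 of the 11965 named genes measured and 10 of 19988 genes and unnamed probes in all. They were taken by symbol, and the set was selected on its measured difference between the diets, so the values of the 10 genes in that comparison are given as a description with no test. Cerebellum came from female Wistar pups aged 21 days. The 4 CTRL pups were born to dams on a standard diet. The 3 MDD pups (methyl donor deficiency) were born to dams whose diet lacked enough vitamin B12 and folate and held less choline. Both diets began 1 month before pregnancy and were kept until weaning on postnatal day 21, so all pups shared strain, sex, age and supplier. No label names a dam or a litter. The spread between pups is therefore the only error measured, and pups of 1 litter cannot be told apart from pups of several.

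MHC class I molecules carry short peptides from inside the cell to its surface, where lymphocytes read them. Proteasomes cut proteins into such peptides, and interferons replace the 3 active-site subunits of the standard 20S core by Psmb8, Psmb9 and Psmb10, which together form the immunoproteasome. Psme1 and Psme2 form the PA28 ring that opens the core, Tap1 and Tap2 pump peptides into the endoplasmic reticulum, and Tapbp (tapasin) holds the pump next to the empty class I molecule, a heavy chain such as RT1-CE10 bound to the light chain B2m. In brain, microglia and endothelial cells are known as the main carriers of these genes, and some developing neurons also express class I molecules.

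In MDD the 3 immunoproteasome subunits were 1.92-fold to 2.44-fold higher, PA28 1.68-fold and 1.78-fold higher and RT1-CE10 3.11-fold higher, while the transporter, tapasin and B2m overlapped between the diets. All 3 MDD arrays stood above all 4 CTRL arrays for 6 of the 10 genes, as they did for 20.1% of all genes and probes. Over all genes and probes, limma with Benjamini-Hochberg adjustment and a threshold of 0.05 called 12.7% higher, 7.72% lower and 20.4% in either direction, the shares against which counts of related genes are read below. In RNA from whole tissue, more cells of a type and more RNA per cell cannot be told apart. The summed signals of microglia, of endothelial and of astrocyte and Bergmann glia markers were also higher on all 3 MDD arrays. A sum is weighted to its brightest genes. The share of markers called higher was 40.9% for microglia and macrophages, 7.69% for endothelial cells and 9.09% for astrocytes and Bergmann glia. The last 2 shares are below the 12.7% of all genes and probes, with median log2 differences of 0.0523 and 0.114. The summed signal of granule neuron markers was lower on all 3 MDD arrays. The choice of the genes rests on this comparison, so nothing is read from the count of 6. The mean was higher in MDD for 10 of 10, with a median log2 difference of 0.79 against -0.0281 over all genes and probes. Values are log2 signal minus the array's 75th percentile, each gene was read by 1 probe, and a level says nothing about the order of different genes.

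The promoters of 6 of the genes are printed. Of these, 4 lie side by side in the MHC on chromosome 20 but differed in whether the diets overlapped, and Psmb10 and B2m lie elsewhere. In the rat gene table the order there is Tap2, Psmb8, Tap1 and Psmb9. Tap1 and Psmb9 point away from each other, and the 250 bases before their starts share 44 bases. Each sequence is the part of those 250 bases that lies outside the gene body, 5′ to 3′ on the gene's strand, from RefSeq on the build GRCr8. Capitals mark matches to the core of the interferon-stimulated response element (GAAA, any 2 bases, then GAAA, read on both strands) or to the interferon gamma activation site (TTCNNNGAA, its own reverse complement).
Psmb8 (chr20:4657050-4657281, strand -): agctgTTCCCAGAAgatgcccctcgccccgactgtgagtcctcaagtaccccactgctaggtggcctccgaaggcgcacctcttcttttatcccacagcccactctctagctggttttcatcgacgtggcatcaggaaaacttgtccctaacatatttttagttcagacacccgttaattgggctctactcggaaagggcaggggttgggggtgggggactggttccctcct
Psmb9 (chr20:4668750-4668951, strand +): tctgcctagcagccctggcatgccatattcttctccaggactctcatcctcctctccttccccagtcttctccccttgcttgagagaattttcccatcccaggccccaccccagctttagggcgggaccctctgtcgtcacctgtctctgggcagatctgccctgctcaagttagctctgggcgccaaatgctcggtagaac
Tap1 (chr20:4668544-4668793, strand -): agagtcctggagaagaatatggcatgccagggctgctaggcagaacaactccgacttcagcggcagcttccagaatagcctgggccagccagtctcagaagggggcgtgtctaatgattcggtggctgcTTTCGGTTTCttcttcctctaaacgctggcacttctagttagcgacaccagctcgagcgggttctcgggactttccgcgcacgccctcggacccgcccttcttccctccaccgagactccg
Tap2 (chr20:4652297-4652546, strand -): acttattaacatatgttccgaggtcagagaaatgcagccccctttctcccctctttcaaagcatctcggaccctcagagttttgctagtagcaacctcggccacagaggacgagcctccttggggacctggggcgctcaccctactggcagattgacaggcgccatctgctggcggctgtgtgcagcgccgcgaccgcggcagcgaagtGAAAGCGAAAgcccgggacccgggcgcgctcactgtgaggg
Psmb10 (chr19:50743293-50743542, strand -): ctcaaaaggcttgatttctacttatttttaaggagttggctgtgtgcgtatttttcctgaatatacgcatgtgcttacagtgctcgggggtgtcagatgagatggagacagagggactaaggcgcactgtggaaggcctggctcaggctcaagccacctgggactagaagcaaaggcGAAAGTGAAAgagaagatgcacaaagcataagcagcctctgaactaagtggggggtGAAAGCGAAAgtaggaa
B2m (chr3:129549080-129549235, strand +): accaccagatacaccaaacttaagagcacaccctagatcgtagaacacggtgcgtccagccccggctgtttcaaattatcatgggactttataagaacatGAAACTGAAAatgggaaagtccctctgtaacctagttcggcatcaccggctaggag

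Over windows of 300 bases, from 250 before the start to 50 after it, the interferon-stimulated core was found in 7 of the 10 genes and in 3.92% of 33469 promoters. The 7 were B2m, Psme2, Psmb10, Tap2, Psmb8, Tap1 and Tapbp, and Psmb10 held 2 matches, whose first bases are at -73 and -17 from its start. The match of Psmb8 runs across the start and so is outside the printed piece. The core was present in 3 of the 6 genes whose groups stood apart and in 4 of the 4 whose groups overlapped. The interferon gamma activation site was found in Psmb8 alone of the 10 and in 8.87% of all promoters. Letters of NF-kappaB sites (GGG, any 5 bases, then CC, on both strands) were in 7 of the 10, against 47.3% of promoters, the ETS letters GGAAGTG were in Psmb8 alone, against 9.86%, and the cyclic AMP response element TGACGTCA was in 0 of the 10, against 1.83%. NF-kappaB and ETS matches are not in capitals, and matches can overlap one another.

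Psmb8 (LMP7) is the immunoproteasome subunit that takes the place of Psmb5, the chymotrypsin-like site. Its log2 signal was -4.40, -4.11, -4.34 and -4.36 in CTRL replicates 1 to 4, and -3.30, -3.25 and -2.50 in MDD replicates 1 to 3. The CTRL arrays lay close together, MDD replicate 3 was the highest, and the lowest MDD array stood 0.808 above the highest CTRL array. The mean was -4.30 ± 0.132 (SD, n = 4) under the control diet and -3.02 ± 0.445 (SD, n = 3) under the deficient one, a log2 difference of 1.28 with a standard error of 0.203. Its spread over the CTRL arrays was at the 18.2 percentile of genes of like signal and its spread over the MDD arrays at the 84.0 percentile.

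Psmb9 (LMP2), which replaces Psmb6, stood at -3.51, -3.62, -3.27 and -3.66 in CTRL and at -2.65, -2.79 and -2.27 in MDD. The groups did not overlap, with a gap of 0.473, and MDD replicate 3 was again the highest. The log2 difference was 0.94 (standard error 0.164), from -3.51 ± 0.175 (SD, n = 4) to -2.57 ± 0.27 (SD, n = 3). Psmb10 (MECL-1), which replaces Psmb7, stood at 1.13, 1.54, 1.43 and 1.39 in CTRL and at 2.28, 2.25 and 2.74 in MDD. Its arrays fell in the same pattern, with a gap of 0.704 and MDD replicate 3 on top. The log2 difference of Psmb10 was 1.05 (standard error 0.166), with means of 1.37 ± 0.177 (SD, n = 4) and 2.42 ± 0.276 (SD, n = 3). Psmb10 lies outside the MHC, on chromosome 19 between Ctrl and Lcat. Of these neighbours Lcat, an enzyme that esterifies cholesterol, was higher by a log2 difference of 0.59 (limma, Benjamini-Hochberg adjusted p = 0.0401), while Ctrl did not pass (0.04, adjusted p = 0.873).

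PA28 alpha and beta, encoded by Psme1 and Psme2, are induced by interferon gamma. Psme1 stood at 0.79, 0.89, 1.02 and 0.91 in CTRL and at 1.71, 1.39 and 2.09 in MDD. The groups were apart by 0.371, and the 3 MDD arrays spread more widely than the 4 CTRL arrays (SD 0.348 against 0.0969). Psme2 was printed as 10 spots on each array where the other genes had 2, which makes it the most heavily read of the set. Its values were 1.54, 1.55, 1.43 and 1.32 in CTRL and 2.40, 2.11 and 2.12 in MDD, with MDD replicate 1 and not replicate 3 the highest. The gap was 0.558, and the SD between its spots on an array was 0.0837, below the SD between pups of 0.106 in CTRL and 0.166 in MDD. The log2 differences were 0.83 (standard error 0.17) for Psme1 and 0.75 (standard error 0.128) for Psme2. Both lie on chromosome 15 with Emc9 between them, and Emc9, a subunit of a membrane protein insertase, was also higher (log2 difference 0.68, limma adjusted p = 0.0177).

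**Figure D1:**
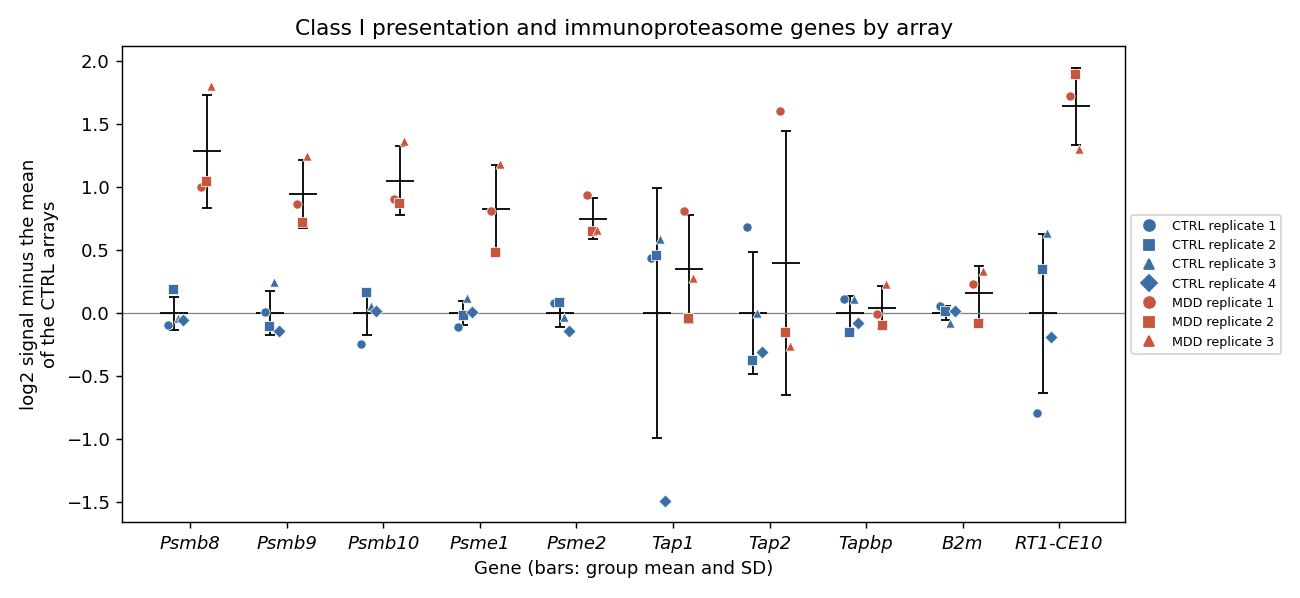
Each point is 1 array, as log2 signal minus the mean of the 4 CTRL arrays of that gene, for the 10 genes along the horizontal axis (blue CTRL, red MDD, bars mean and SD). The 3 MDD arrays lie above the 4 CTRL arrays for the 5 proteasome genes on the left and for RT1-CE10 on the right, and the groups overlap for Tap1, Tap2, Tapbp and B2m.

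For the transporter and tapasin the arrays of the diets overlapped, unlike those of the proteasome subunits. Tap2 stood at -2.40, -3.46, -3.09 and -3.40 in CTRL and at -1.48, -3.24 and -3.35 in MDD. Replicate 1 was the highest array of both groups, and without MDD replicate 1 the log2 difference turned from 0.40 to -0.208. The standard error was 0.461, and the spread of Tap2 was at the 96.0 percentile of genes of like signal in CTRL and at the 99.6 percentile in MDD. Tap1 was dim, well above background on 5 of 7 arrays, with -5.70, -5.68, -5.55 and -7.63 in CTRL and -5.33, -6.18 and -5.86 in MDD. CTRL replicate 4 was far below the others, and leaving it out turned the log2 difference from 0.35 to -0.147. The standard error of Tap1 was 0.492, so neither Tap1 nor Tap2 was measured closely enough to be told apart from the proteasome subunits. Tapbp stood at -3.42, -3.68, -3.42 and -3.61 in CTRL and at -3.54, -3.63 and -3.30 in MDD, a difference of 0.04 with a standard error of 0.135. Its 7 arrays lay within a narrow band in which the diets were mixed.

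B2m, the light chain that class I molecules share, gave 2.32, 2.28, 2.19 and 2.28 in CTRL and 2.50, 2.19 and 2.60 in MDD. MDD replicate 2 lay inside the range of the CTRL arrays, and the log2 difference was 0.16 (standard error 0.131, 1.12-fold). The sign of that difference was not stable, at -0.0748 after quantile normalization and -0.182 once a trend with gene length and signal was removed. RT1-CE10, a classical-type class I heavy chain gene, gave -6.06, -4.91, -4.63 and -5.45 in CTRL and -3.54, -3.36 and -3.96 in MDD. The groups stood apart by 0.668, and CTRL replicate 1 was the lowest array. The log2 difference was 1.64 (standard error 0.326), from -5.26 ± 0.63 (SD, n = 4) to -3.62 ± 0.309 (SD, n = 3). Its probe exceeded background clearly on 3 of the 4 CTRL and all 3 MDD arrays, and normexp background correction gave a smaller difference of 0.878.

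RT1-CE10 is 1 of many near-identical class I genes of the rat MHC, and in the gene table it lies within RT1-CE11, whose own difference was -0.07 (limma adjusted p = 0.826). Which of these transcripts a probe reads is therefore uncertain. Of 20 other class I genes of the RT1 complex that were measured, 17 had a higher mean in MDD, and RT1-A2 alone of the 20 passed. RT1-A2 gave -2.33, -2.69, -1.87 and -2.69 in CTRL and -1.61, -1.59 and -1.09 in MDD, a log2 difference of 0.97 (standard error 0.231, limma adjusted p = 0.0265). RT1-A1, a classical gene of the same region, gave 1.11, 0.53, 1.22 and 0.64 in CTRL and 1.75, 0.99 and 1.54 in MDD, and its difference of 0.56 did not pass (adjusted p = 0.121).

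Within the CTRL group these genes differed between pups more than most. For 13 of the 20 the SD over CTRL arrays was above the 90th percentile of genes of like signal. RT1-CE16 gave -1.52, -3.12, -1.48 and -3.33 in CTRL and -0.89, -2.52 and -2.15 in MDD, with CTRL replicates 1 and 3 and MDD replicate 1 high. RT1-CE2 gave -0.69, -2.40, -0.76 and -2.59 in CTRL and -0.18, -2.03 and -1.36 in MDD, also with CTRL replicates 1 and 3 and MDD replicate 1 high. The spread of both in CTRL was at the 99.5 percentile. The median pairwise Pearson correlation among the 20 genes over the 7 arrays was 0.629 over 190 pairs, a description, since the genes share arrays and class I genes share much sequence. Unlike for RT1-CE16 and RT1-CE2, CTRL replicate 1 was the lowest array for RT1-CE10. The same held for RT1-CE12 (-7.12) and RT1-N3 (-4.82).

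**Figure D2:**
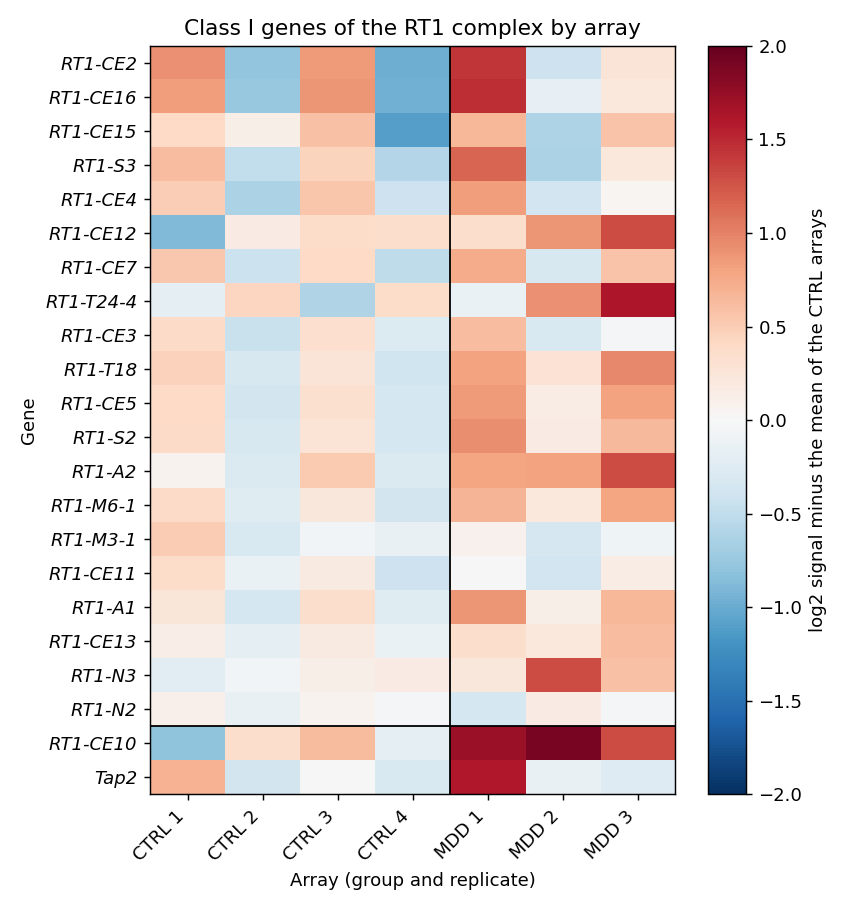
Each cell is log2 signal minus the mean of the 4 CTRL arrays for 1 gene (rows) on 1 array (columns), from blue (lower) to red (higher), with genes ordered by their SD over CTRL arrays. CTRL replicates 1 and 3 are red and replicates 2 and 4 blue in many of the 20 upper rows, while RT1-CE10 in the row above Tap2 is red on all 3 MDD arrays.

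How the 10 genes varied together was described by correlation over the 7 arrays, before and after each group's mean was removed. Psmb8 and Psmb10 had r = 0.987, and 0.899 with group means removed. Psmb9 and Psme1 had 0.972 and 0.836, and Psmb8 and Psmb9, which share a locus, 0.95 and 0.631. The paired PA28 genes had 0.85 over all arrays and -0.11 within groups, and RT1-CE10 and B2m had 0.256 and -0.56. The mean deviation of the 5 proteasome genes from their CTRL means was between -0.0768 and 0.0706 log2 on the 4 CTRL arrays, and 0.904, 0.758 and 1.25 on MDD replicates 1, 2 and 3. MDD replicate 3 was thus the highest and replicate 2 the lowest of the treated arrays for the group as a whole.

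The genes whose profile was most like the mean profile of the 10, each centred and scaled over the 7 arrays, were Sord with r = 0.99, Chmp6, Det1, Acsbg1 and Pex10 with 0.988 each, and Ccm2 with 0.987. In all, 290 of 11948 candidate genes reached 0.95. With group means removed the nearest were Cyp4f5 at 0.992, Pygb, Slc43a1 and Dapk3 at 0.983, and Rpl24 and Wdr73 at 0.981, and 48 genes reached 0.95. None of these 12 is a gene of class I presentation.

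The immune subunits were set beside the constitutive subunits they replace. Psmb5 was higher in MDD by 0.999 on the log2 scale (standard error 0.233, limma adjusted p = 0.0243), with 2.93, 3.13, 3.13 and 3.01 in CTRL and 3.75, 3.72 and 4.68 in MDD. Psmb6 was higher by 0.99 (standard error 0.174, adjusted p = 0.0118), and Psmb7, at 0.43, did not pass (adjusted p = 0.239). After quantile normalization the difference of Psmb5 was 0.6 (adjusted p = 0.0455). The difference of Psmb8 exceeded that of Psmb5 by 0.286, and per array the excess was 0.30, 0.39 and 0.17 in MDD against at most 0.11 in CTRL. That of Psmb10 exceeded Psmb7 by 0.623, with 0.87, 0.71 and 0.28 in MDD against at most 0.13 in CTRL. Psmb9 and Psmb6 differed between the diets by like amounts, the excess being -0.0476 and overlapping arrays. After normexp correction the immune subunit was the lower of the pair for Psmb8 (0.799 against 1.0 for Psmb5) and for Psmb9 (0.698 against 0.967 for Psmb6). In the authors' deposited table Psmb8 was 0.924 and Psmb5 0.697. The sign of the Psmb8 excess thus depended on the processing. All these excesses rest on the same values that chose the immune subunits and were not tested.

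**Figure D3:**
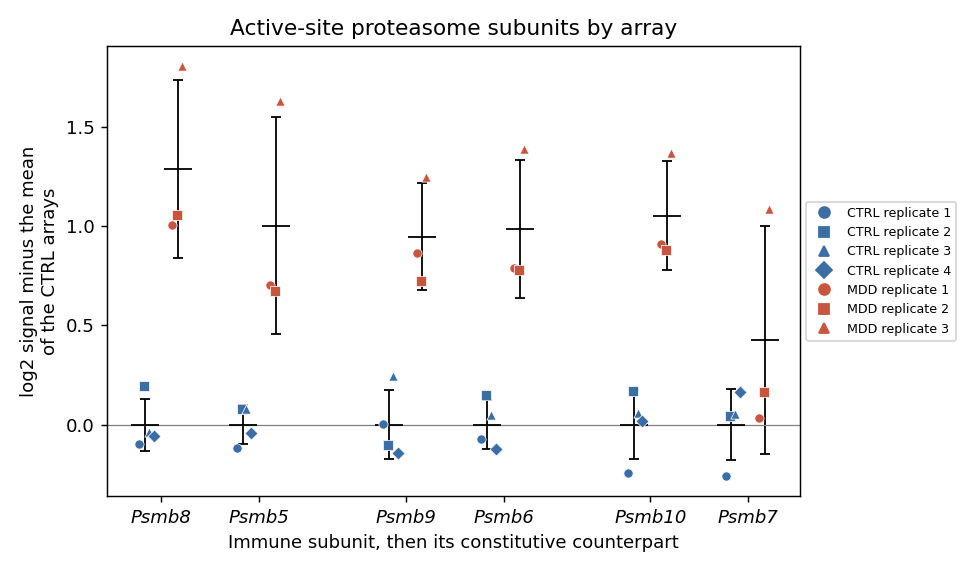
Each point is 1 array, as log2 signal minus the mean of the 4 CTRL arrays, for each immune subunit and, to its right, the constitutive subunit it replaces (blue CTRL, red MDD, bars mean and SD). Psmb5 and Psmb6 are higher on all 3 MDD arrays like their immune counterparts, and for Psmb7 MDD replicate 3 alone is far from the CTRL arrays.

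Across the rest of the proteasome, 8 of 20 measured genes of the constitutive core, its regulators and its assembly factors were higher and 1 lower (limma, adjusted p under 0.05), with a median log2 difference of 0.325. Pomp, the chaperone that assembles core particles of both kinds, was 1.76-fold higher (adjusted p = 0.0103), Psmb4, a structural beta subunit, 2.18-fold (adjusted p = 0.0109) and Psmb3 1.95-fold (adjusted p = 0.0205). After quantile normalization the log2 difference of Pomp went from 0.815 to 0.362 and did not pass (adjusted p = 0.0542), and that of Psmb4 from 1.12 to 0.699, which passed. In the authors' deposited table Pomp was 0.414. The median of the 20 genes was 0.141 after quantile normalization and 0.166 in the authors' deposited table. The gene that was lower was Psme4 (PA200), another activator of the core, with a log2 difference of -0.444 (adjusted p = 0.0486). It did not pass after normexp correction (adjusted p = 0.0557) or when arrays were scaled by their median (adjusted p = 0.0855). Psme3, the nuclear relative of PA28, gave -0.53 and did not pass (adjusted p = 0.114). Of 22 measured genes of the 19S cap, which feeds ubiquitinated proteins into the core, 4 were higher and 1 lower, with a median of 0.223. They included Psmd8 (1.64-fold, adjusted p = 0.0154) and Sem1 (1.47-fold, adjusted p = 0.0147), and Usp14, a deubiquitinase of the cap, was 1.42-fold lower (adjusted p = 0.046). The cap's median was -0.0115 after quantile normalization and 0.000268 in the authors' deposited table, so no direction is given for it as a whole. Sem1 fell from 0.557 to 0.194 after quantile normalization and to 0.262 in the authors' deposited table, and passed in neither (adjusted p = 0.236 and 0.0866), and Usp14 did not pass after normexp correction (adjusted p = 0.0512).

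Of 24 measured class I heavy chain and class I-like genes other than RT1-CE10, 2 were higher and 0 lower, and their median difference was 0.464. That median was 0.264 without MDD replicate 1, 0.269 without CTRL replicate 4, 0.297 without CTRL replicate 2 and 0.708 without MDD replicate 2. Without CTRL replicate 2, CTRL replicate 4 or MDD replicate 3, 0 of the 24 were called higher. RT1-A2 was one, and the other was Fcgrt, the neonatal receptor for antibody that also binds B2m (1.82-fold, limma adjusted p = 0.0284). Among genes that load class I molecules or trim their peptides, 4 of 17 were higher and 0 lower. These were Sec61g (2.3-fold, adjusted p = 0.00963) and Sec61b (1.55-fold, adjusted p = 0.016), which are subunits of the general translocation channel, the peptidase Thop1 (1.46-fold, adjusted p = 0.0338) and the glucosidase Mogs (1.31-fold, adjusted p = 0.037). None of them is specific to class I. Thop1 and Mogs did not pass after quantile normalization (0.399 and 0.247, adjusted p = 0.064 and 0.111) or in the authors' deposited table (adjusted p = 0.0603 and 0.0653), nor Mogs after normexp correction (adjusted p = 0.0555). The median of these 17 genes was 0.0513, and it was -0.128 and -0.122 under quantile normalization and in the authors' deposited table, so no direction is given for the list. The chaperones that handle the heavy chain did not pass, with Calr at -0.03 (adjusted p = 0.939), Pdia3 at -0.24 (adjusted p = 0.321) and Canx at -1.15 (adjusted p = 0.236), where MDD replicate 1 stood at -5.51 against -2.48 and -2.45 in the other two.

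Of 28 measured genes that switch on class I transcription or carry the interferon signal, 1 was higher and 1 lower, with a median of -0.0823, against 12.7% and 7.72% of all genes and probes. Rfxank, a subunit of the factor that binds MHC promoters, was 1.51-fold higher (limma adjusted p = 0.0328), and Atf1, which binds the cyclic AMP element, was 1.45-fold lower (adjusted p = 0.0457, and 0.0809 when arrays were scaled by their median). Irf1 gave 0.13 and did not pass (adjusted p = 0.531), and the class I transactivator Nlrc5 was not measured. Of 36 measured interferon-stimulated genes, 4 were higher and 2 lower, with a median of 0.0368, and the share that was higher, 11.1%, was near the 12.7% of all genes and probes. Ube2l6, the conjugating enzyme for Isg15, was 1.89-fold higher (adjusted p = 0.00963), Ifi27 1.95-fold (adjusted p = 0.0106), Ifi35 1.89-fold (adjusted p = 0.0313) and Ifitm2 1.78-fold (adjusted p = 0.0334). Mx1, an antiviral GTPase, was 1.79-fold lower (adjusted p = 0.0348). Ifit2, which blocks translation of foreign RNA, measured 2.17-fold lower on the processed signal (adjusted p = 0.0217). Its probe was well above background on 4 of 4 CTRL and 0 of 3 MDD arrays. That fold is the difference of the measured means, -5.42 in CTRL and -6.54 in MDD. With the probe not clear of background in MDD it is neither a bound nor a close estimate. It does not carry over to other corrections. The log2 difference of Ifit2, -1.12, was -0.321 after normexp correction, where it did not pass (adjusted p = 0.173), and -0.429 in the authors' deposited table. That of Ifi35 was 0.605 after normexp correction, and that of Ifi27 0.521 after quantile normalization, and both still passed (adjusted p = 0.0483 and 0.028). Isg15 itself gave 0.25 and did not pass (adjusted p = 0.603).

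Class II genes present peptides from outside the cell, and 5 of 14 measured were higher and 0 lower, with a median of 0.412. They were RT1-Da (2.33-fold, limma adjusted p = 0.0476, arrays overlapping), RT1-DMa (1.57-fold, adjusted p = 0.0371), Ifi30 (1.62-fold, adjusted p = 0.0128), Ctsz (1.81-fold, adjusted p = 0.0219) and Ctsb (1.39-fold, adjusted p = 0.0275). The log2 difference of RT1-Da, 1.22, was 0.51 after normexp correction, where it did not pass (adjusted p = 0.141), and 0.59 in the authors' deposited table. The direction of Ctsb turned with the scaling, to -0.122 after quantile normalization and -0.0408 in the authors' deposited table. Of 16 listed receptors that read class I, 3 were measured, and Cd8a, the co-receptor of cytotoxic T cells, was higher (log2 difference 0.92, adjusted p = 0.0201) although its probe was clearly above background on only 2 of 4 CTRL arrays. For Cd8a normexp correction gave 0.337, which did not pass (adjusted p = 0.187), and the value was 0.364 in the authors' deposited table. Cd8b, its partner chain, went the other way at -0.39 and did not pass (limma adjusted p = 0.0535). All 3 MDD arrays of Cd8b lay below all 4 CTRL arrays. With only probes well above background on all 7 arrays, 2 of these receptors were measured, 0 were higher and 1 was lower.

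**Figure D4:**
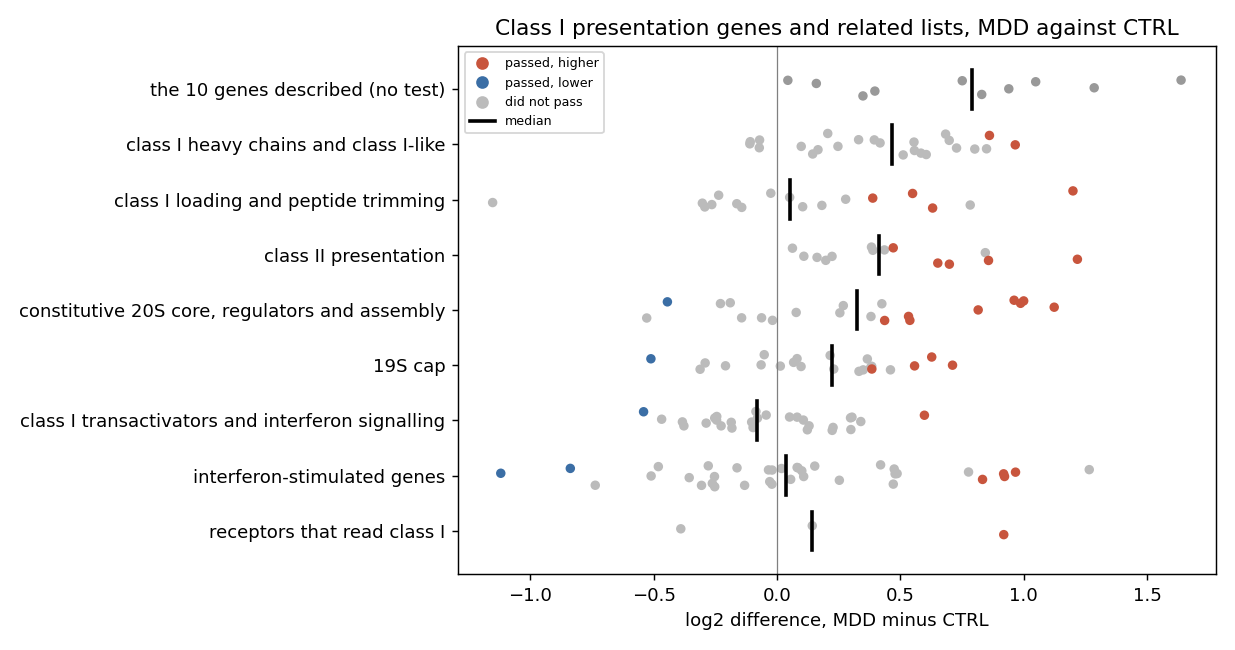
Each point is a measured gene at its log2 difference, MDD minus CTRL (horizontal axis), in rows for the 10 genes described and 8 related lists, with the list's median as a bar. Red and blue points passed limma with adjustment over all genes and probes, and for the 10 genes, in dark grey, no test is shown.

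Several other measurements moved with the diet groups. Of 22 measured markers of microglia and macrophages, 9 were higher and 1 lower (limma, adjusted p under 0.05). Their summed signal, in units of the array's 75th percentile, was 17.7 to 18.4 in CTRL and 22.0 to 27.4 in MDD. Trem2 was 2.19-fold higher (adjusted p = 0.00963), Tyrobp 1.99-fold (adjusted p = 0.0111) and C1qb 1.91-fold (adjusted p = 0.0113), while Cx3cr1 was 1.86-fold lower (adjusted p = 0.011), and Irf8, Mpeg1 and Siglech were not measured. Of 13 endothelial markers 1 was higher, Cldn5 (1.6-fold, adjusted p = 0.018), with sums of 5.87 to 6.67 in CTRL and 6.85 to 8.33 in MDD. Of 19 listed lymphocyte markers 8 were measured, 1 was higher, Cd8a, and 0 were lower. The limits given above for Cd8a hold here too. All 3 MDD arrays stood above all 4 CTRL arrays for 3 of the 8 and below them for 2, among them Cd8b. Over all genes and probes those shares were 20.1% and 16.4%. The sums of the 8 markers were 0.465 to 0.535 in CTRL and 0.473 to 0.792 in MDD. Cd3e, Cd3g and Cd79a, which are defining genes of T and B cells, were not measured. The T cell genes Cd3d, Cd4 and Lck were among the 8 measured and did not pass. Erythroid markers summed to 133 to 227 in CTRL and 177 to 524 in MDD, with 1 of 7 higher. The part of these cell types in the differences of the 10 genes was not tested.

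The tissue's own markers were present. Of 16 granule neuron markers 6 were lower and 1 higher (Snap25 1.85-fold lower, limma adjusted p = 0.0131), of 10 Purkinje cell markers 4 were lower and 2 higher, and of 11 astrocyte and Bergmann glia markers 1 was higher. Granule neuron markers summed to 156 to 165 in CTRL and 130 to 152 in MDD. Astrocyte and Bergmann glia markers summed to 254 to 275 in CTRL and 303 to 339 in MDD.

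Gene length also went with the calls. Of named genes up to 3000 bases long 26.4% were called higher, and of those over 3000 and up to 6500 bases 25.2%. The share was 16.5% for those over 6500 and up to 15000 bases and 4.81% for longer ones. The 10 genes are short. The groups stood apart for 3 of the 3 that are up to 3000 bases long (Psmb8, Psmb10 and Psme1). They did so for 3 of the 4 over 3000 and up to 6500 bases (RT1-CE10, Psmb9 and Psme2, not B2m). They did so for 0 of the 3 longer ones (Tap1, Tap2 and Tapbp). Standing apart is not the same measure as a call, and its share by length over all genes is not given here. The 10 genes were selected on this comparison, so nothing is read from these counts. After a trend with length and signal was removed the log2 differences were 1.49 for RT1-CE10, 1.11 for Psmb8, 0.78 for Psmb9, 0.689 for Psmb10, 0.501 for Psme1 and 0.416 for Psme2. With that trend removed 17 of the 32 related genes followed through the settings did not pass, among them Sec61b, Thop1, Mogs, RT1-Da, RT1-DMa, Psmb3, Psmb5, Psme4, Psmd8 and Sem1. The part of gene length in the differences was not tested further.

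CTRL replicates 1 to 3 lay in the first row of the slide and CTRL replicate 4 and all 3 MDD arrays in the second, so within a row the only comparison is MDD against CTRL replicate 4. That comparison gave log2 differences of 1.34 for Psmb8, 1.08 for Psmb9, 1.03 for Psmb10, 0.817 for Psme1, 0.886 for Psme2 and 1.82 for RT1-CE10. It gave 1.83 for Tap1, where CTRL replicate 4 was the low array, 0.71 for Tap2, 0.144 for B2m and 0.117 for Tapbp. With the row as a covariate 0 of the 34 related genes called above passed (limma), and 1 of all genes and probes did, against 4071 at an unadjusted p under 0.05. Without CTRL replicate 4 the related genes called fell from 34 to 7, without another CTRL array to between 13 and 15, and without MDD replicate 1 or 3 to 21 and 20.

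**Figure D5:**
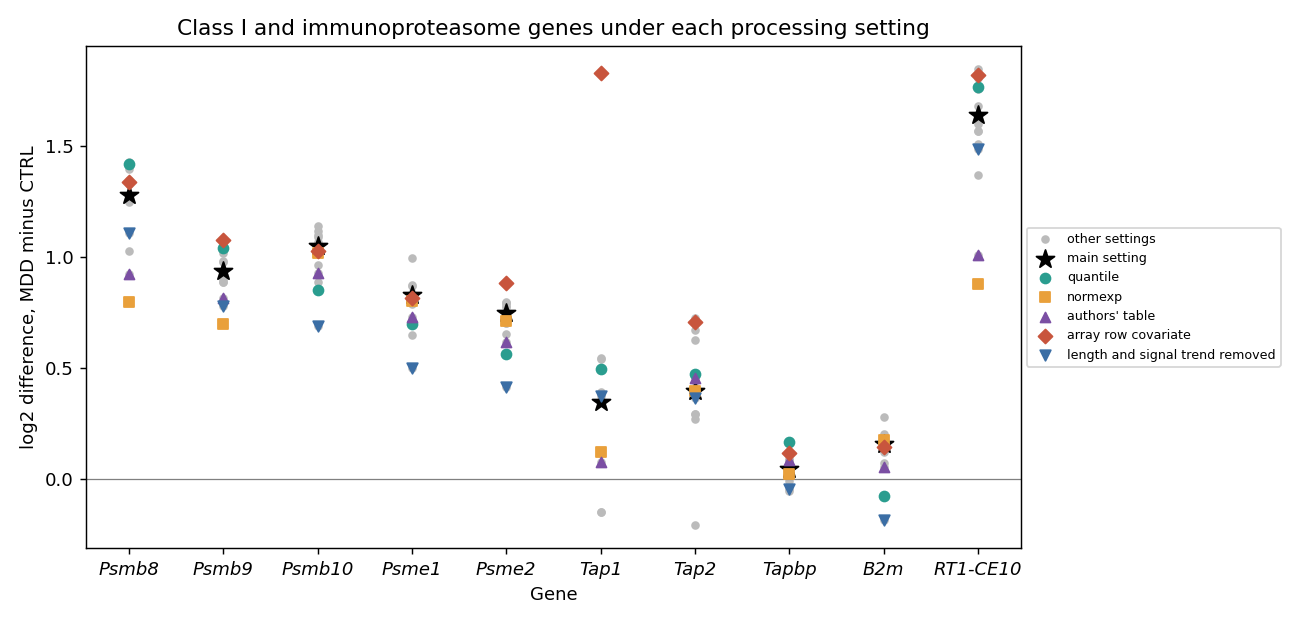
Each point is the log2 difference, MDD minus CTRL, of 1 gene under 1 processing setting, with the main setting as a star. Psmb8, Psmb9, Psmb10, Psme1, Psme2 and RT1-CE10 stay above 0 under every setting plotted, from 0.416 to 1.85, and Tap1, Tap2, Tapbp and B2m fall on both sides of 0.

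The authors' deposited table of normalized intensities gave the same order of groups. In it the arrays stood apart for all of the 6 genes, with mean intensities of 126.5 in CTRL and 241.4 in MDD for Psmb8, 194.0 and 342.6 for Psmb9, 4027 and 7664 for Psmb10, 3157 and 5327 for Psme1, and 93.67 and 189.6 for RT1-CE10. Its log2 differences were smaller, at 0.924 for Psmb8 and 1.01 for RT1-CE10 against 1.28 and 1.64 above. Averaged over arrays on the log2 scale, its values followed the scanner's signal before background subtraction (r = 0.999985 across probes). Such averages do not show how single arrays were scaled. How the authors normalized it is not stated in the sources used.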

How the data were processed

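Cerebellar RNA of 7 pups was hybridised to 1-colour Agilent rat arrays, and groups follow the sample titles. The deposited scanner tables hold linear spot intensities, written per the file headers by Feature Extraction 10.7.3.1, with a processed signal that is background-subtracted within the array and not scaled between arrays. Flags for outlier, saturated and well above background spots are other columns of those deposited tables, scored 0 or 1 by the scanner software. A further deposited table holds the authors' normalized intensities, and its columns show the group but not which pup.

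Processed signals were divided by the 75th percentile of their array over non-control spots (1140 to 2105 intensity units) and put on the log2 scale. Of the 58717 such spots 74.1% to 79.6% per array passed the scanner's background test and 0 were saturated. Precision is limited by the number of arrays. Outlier spots were dropped, spots of a probe averaged, and a probe kept if at least 50% of its spots passed it on 3 or more of the 7 arrays (22251 of 30367 probes). Symbols came from a RefSeq table of the rat assembly GRCr8 by accession, and the brightest probe stood for a gene. The diets were compared by two-sided lmFit and eBayes fits of limma 3.58.1 (R 4.3.3), with Benjamini-Hochberg adjustment over 19988 genes and unnamed probes and 5 residual degrees of freedom. The code was tested on simulated arrays.

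The 10 genes, the related lists and the marker lists were chosen with earlier results of these data known. Named genes are all 10, up to 6 that passed per related list, up to 4 per marker list (or the 2 with the smallest p), and 6 per measure of likeness. Genes named as neighbours or for comparison were added after their values were seen. All arrays share 1 slide and 1 scan time. Alternatives were other scalings, normexp on the median signal with an offset of 50 (no mean signal was used here), the authors' deposited table, other filters and probe rules, each array left out, a replicate block, the array row and a length and signal trend. Replicate numbers were checked for pairing by the correlation of deviations from group means (0.0947, -0.179 and 0.223) and were not taken to pair the pups. Some genes that the rule or the lists cover are not reported here.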

Additional observations from a re-analysis of the deposited data

Results flagged for a closer look

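In 77 groups of 4 arrays checked, 4 held an array far from the other three, where chance flags about 1 in 20 groups. The gap to the nearest array was 0.925 of the whole range for Tap1, where CTRL replicate 4 was the lowest at -7.63 on the log2 scale. It was 0.876 for Psmb4 (CTRL replicate 4 lowest, 3.06), 0.883 for Ifitm2 (CTRL replicate 1 lowest, -0.17) and 0.936 for Pf4, a perivascular macrophage marker (CTRL replicate 1 lowest, -4.03).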

How the results depend on the processing

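Over 18 settings the log2 differences of Psmb8, Psmb9, Psmb10, Psme1 and Psme2 stayed above 0, and RT1-CE10 over the 17 that measured it. Tap1 was above 0 in 15 of 17, Tap2 in 17 of 18, B2m in 16 of 18 and Tapbp in 15 of 18. These settings are not separate checks. Each of the 10 genes had 1 probe, so other filters and probe rules could only return the main value. The replicate block returned the differences found without CTRL replicate 4, so the value of -0.147 for Tap1 is counted under both. The median difference of the 10 genes, 0.79, was 0.458 once a trend with gene length and signal was removed and between 0.746 and 0.9 with each array left out. Genes and probes called by limma, 4080, numbered 1592 with no filter on detection, where more were tested, and 1374 with the trend removed, where 11965 were tested. Related genes called, 34, then numbered 13 and 18. With an array left out the counts ran from 1014 to 5233 and from 7 to 41. With the array row as a covariate they were 1 and 0. With a replicate block, over replicates 1 to 3, they were 0 and 0, against 6161 genes and probes at an unadjusted p under 0.05. The numbers were not taken to pair the pups, and 1 of 3 MDD arrays correlated best with the CTRL array of its own number. Ctsb turned to -0.122 after quantile normalization and to -0.0408 in the authors' deposited table. Of all calls 62.2% were higher, and between 55.5% (without MDD replicate 2) and 78.2% (without CTRL replicate 4) under the other settings that made more than 1 call. That share was 56.7% after quantile normalization, 57.5% in the authors' deposited table, 58.2% with the trend removed, 71.0% after normexp correction and 75.6% with no filter. Of the 32 related genes that the rule names or that were added, 26 kept their call after quantile normalization, 25 after normexp correction, 27 in the authors' deposited table and 13 with no filter. What caused these changes was not tested. Dim probes such as Tap1 and RT1-CE10 are limited by background.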
